A study of Mus musculus with 8 samples.

Results

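The 8 genes described here, of 37991 in the deposited table, are Acp5, Lgals3, Gpnmb, Spp1, Trem2, Cd9, Fabp5 and Mmp12, which osteoclasts and lipid-associated macrophages are known for. They were picked around the higher Acp5 and Lgals3 in single colored cells, so their difference between the groups chose them. Their values in that contrast are given as a description, with no p-value. Where the fit over all genes placed one of them past its threshold, this is stated as a description too and supports nothing. RNA was sequenced from adult cardiomyocytes isolated from hearts of alpha-MHC MERCREMER MADM mice, in which a tamoxifen-activated Cre recombinase is driven by the cardiomyocyte alpha myosin heavy chain promoter. In MADM (mosaic analysis with double markers), Cre joins split fluorescent reporters across chromosome pairs, and a cell that divides after this can pass on 1 of 2 colors to a daughter. In both groups the hearts had been given adenoviral vectors for 4 cell cycle genes 2 weeks before cell isolation, so every library comes from treated hearts. The 4 single colored libraries are labelled as cells that performed a cell cycle. The 4 double colored libraries are labelled as cells under the same treatment that did not. The labels give neither the age of the mice nor whether the replicates of a group came from separate animals. Each p-value is thus set against a spread among libraries that could be technical.

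Acp5 encodes tartrate-resistant acid phosphatase, the enzyme used to stain osteoclasts, the multinucleated macrophage relatives that resorb bone. Lipid-associated macrophages take up lipid and dying cells through receptors such as Trem2 and express Gpnmb, Spp1, Cd9, Fabp5 and Lgals3, and such cells are known in adipose tissue, in atherosclerotic plaques and in the injured heart. Transcription factors of the MITF and TFE family, with PU.1, AP-1 and NFAT, are known regulators of osteoclast and macrophage genes.

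Promoter sequences are shown for 3 of the genes to let a reader see where letters bound by these factor families occur. RefSeq windows on GRCm38.p6 were found for 7 of the 8 genes, 11 windows in all, with several start sites for Acp5, Spp1 and Mmp12. In the 250 bases before each start, both strands were searched for CACGTG (E-box), TCATGTG (M-box), TGANTCA (AP-1), GAGGAA (PU.1 core) and TGGAAA (NFAT core). The last 125 bases before the start are printed for the 2 windows with an M-box, of Acp5 and Mmp12, and for Trem2, which had an AP-1 match. Matches are in capitals, read on the gene's strand, so that CACATGA is the M-box on the opposite strand.
Acp5 window 3, chr9:22130599-22130723, minus strand: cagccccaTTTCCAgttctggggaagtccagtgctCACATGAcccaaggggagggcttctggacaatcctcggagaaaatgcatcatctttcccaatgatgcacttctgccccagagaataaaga
Mmp12 window 2, chr9:7347249-7347373, plus strand: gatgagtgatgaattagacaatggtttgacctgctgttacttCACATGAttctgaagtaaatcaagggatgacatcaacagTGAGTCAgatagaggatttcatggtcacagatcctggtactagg
Trem2 window 1, chr17:48346276-48346400, plus strand: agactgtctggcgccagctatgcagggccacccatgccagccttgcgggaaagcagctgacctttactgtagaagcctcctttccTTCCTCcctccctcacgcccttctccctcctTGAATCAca

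The M-box stood 90 to 84 bases before the Acp5 start and 83 to 77 bases before the Mmp12 start. It was in 2 of the 11 windows, and in 3.25% of all 32851 windows of the same length. The AP-1 match lay 44 to 38 bases before the Mmp12 start and 9 to 3 bases before the Trem2 start, and 6.75% of all windows held this motif. No window of the 7 genes held the E-box, which 6.02% of all windows held. The PU.1 core was found in 3 windows, of Spp1, Trem2 and Mmp12, and the NFAT core in 3, of Acp5, Gpnmb and Spp1. Among all windows these short cores occurred in 23.3% and 18.6%. No match was found in the windows of Lgals3 and Cd9. Such matches describe the sequence and not binding.

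The libraries held 23820700 to 30082278 counted reads, of which 77.5% to 88.3% fell on mitochondrially encoded genes. This left 3503353 to 6112595 nuclear-encoded reads per library. Levels are CPM (read counts scaled to library size) over all genes with TMM scaling, which corrects for differences in composition between libraries. Among 12466 tested genes, the edgeR quasi-likelihood test called 2.32% higher and 0.16% lower in single colored cells at an adjusted p of 0.05. All 4 single colored libraries lay above all 4 double colored libraries for 5.37% of tested genes.

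All 8 genes passed the filter on low counts, but only Gpnmb, Cd9 and Fabp5 reached it in all 4 double colored libraries as well. The other 5, Acp5, Lgals3, Spp1, Trem2 and Mmp12, passed through the single colored libraries. Of the 8, 3 were past the threshold, Acp5, Lgals3 and Trem2, beside the 2.32% of tested genes, and nothing is read from this count because the contrast chose the genes. The groups did not overlap for 4, Acp5, Lgals3, Gpnmb and Mmp12, beside 5.37% of tested genes. With the replicate number as a block, 5 of the 8 were past the threshold, Gpnmb and Mmp12 being added, beside 4.97% of tested genes called higher and 2.57% called lower in that fit. Without double colored replicate 1 the count was 6, with Gpnmb, Spp1 and Mmp12 added, beside 1.55% of tested genes called higher. It was also 6 without pair 1, beside 1.09%. The median log2 fold change of the 8 was 2.61, and that of all tested genes was −0.01. In numbered pairs, the single colored library was the higher in 30 of 32 gene and pair combinations. The exceptions were Fabp5 in pair 1 and Cd9 in pair 3. The contrast chose the genes and they share libraries, so these are not 32 separate observations. Nothing is read from this count either.

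**Figure D1:**
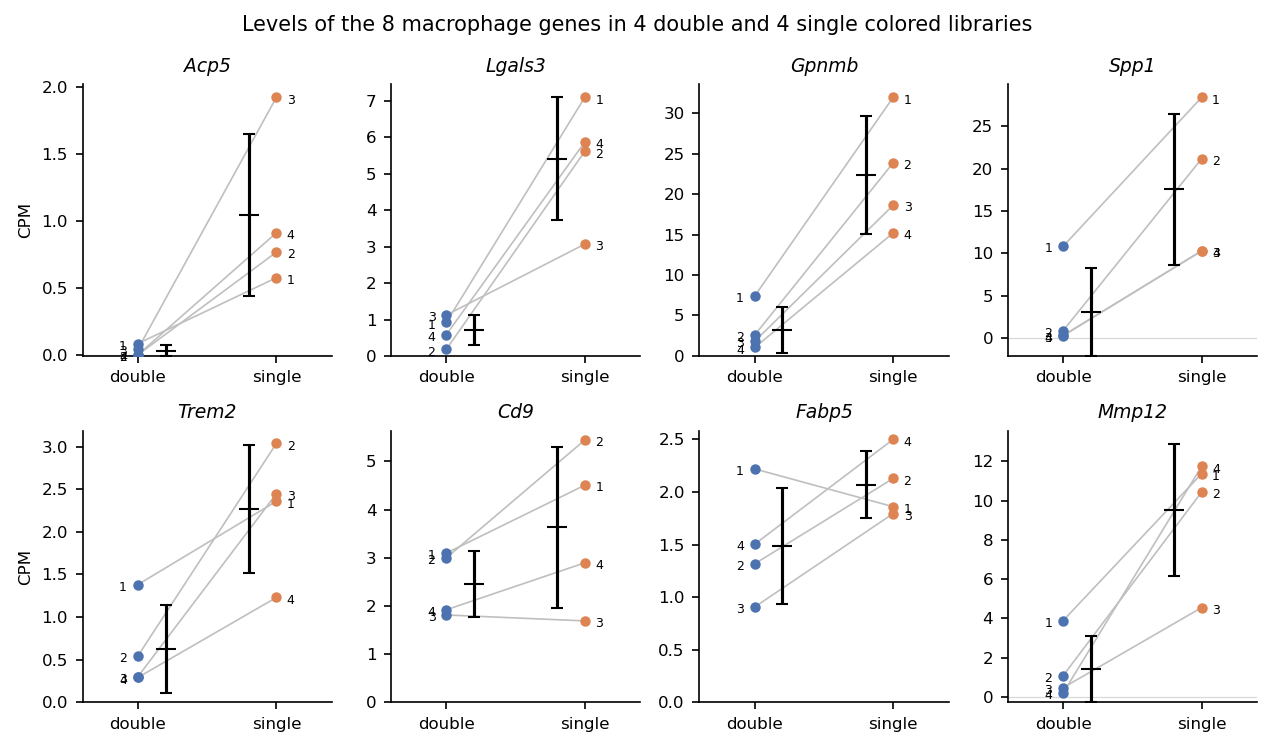
Level of each of the 8 genes in CPM (vertical axis, linear, a separate scale per gene) in 4 double colored and 4 single colored libraries (points, numbered by replicate and joined by number), with mean ± SD bars (n = 4). Acp5, Lgals3, Gpnmb and Mmp12 do not overlap between the groups, while Spp1 in double colored replicate 1, at 10.8 CPM, stands above 2 single colored libraries.

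Acp5 was close to absent from double colored cells. Its counts were 2, 0, 1 and 0 reads in double colored replicates 1 to 4 and 22, 22, 74 and 23 reads in single colored replicates 1 to 4. The groups did not overlap, and single colored replicate 3 was the highest. In CPM these were 0.0837, 0, 0.0432 and 0 against 0.576, 0.768, 1.93 and 0.913. The group means were 0.0317 ± 0.0402 and 1.05 ± 0.603 CPM (SD, n = 4 each). The pooled rates, 141 reads against 3, gave a ratio of 33.5 with an exact conditional 95% interval of 11.2 to 164, which covers counting error only. The fitted log2 fold change, 4.85 ± 0.79 (SE), depends for so few reads on the prior count of the fit. In mm9, the build of the deposited table, Acp5 (ENSMUSG00000001348) lies on the minus strand at chr9:21931175-21940190.

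Mmp12, macrophage elastase, degrades elastin and other matrix proteins. It stood at 3.89, 1.09, 0.475 and 0.209 CPM in double colored replicates 1 to 4. In single colored replicates 1 to 4 it stood at 11.4, 10.4, 4.55 and 11.7 CPM. Every single colored library was above every double colored one, although single colored replicate 3 came near double colored replicate 1. On the log2 scale the difference was 2.74 ± 0.76 (SE), and 3.08 with the replicate block. The numbered pairs differed widely, with single over double ratios of 2.92, 9.57, 9.58 and 56.2. Mmp12 (ENSMUSG00000049723) lies at chr9:7344381-7369499 on the plus strand, and 2.17% of its exon length overlaps Mmp1b on the opposite strand, where reads cannot be assigned without strand.

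Spp1 and Lgals3 encode secreted proteins. Spp1, osteopontin, is a matrix protein that binds integrins and Cd44 and anchors osteoclasts to bone. It stood at 10.8, 0.909, 0.346 and 0.293 CPM in double colored replicates 1 to 4 and at 28.4, 21.1, 10.3 and 10.3 CPM in single colored replicates 1 to 4. The groups overlapped through double colored replicate 1 alone, which held 87.5% of the summed double colored level and was 11.9 times the next highest. The group means were 3.10 ± 5.17 and 17.5 ± 8.86 CPM, and without double colored replicate 1 the double colored mean was 0.516 ± 0.342 CPM (SD, n = 3). The log2 fold change was 2.49 ± 1.16 (SE) in all libraries and 5.09 without that library. The pair ratios were 2.62 for number 1 and 23.3, 29.7 and 35.3 for numbers 2 to 4. Spp1 (ENSMUSG00000029304) lies at chr5:104864137-104870069 on the plus strand.

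Lgals3, galectin-3, is a sugar-binding protein that macrophages secrete. It stood at 0.921, 0.182, 1.12 and 0.585 CPM in double colored and 7.10, 5.62, 3.07 and 5.87 CPM in single colored replicates 1 to 4. The lowest single colored library was 3.07 CPM and the highest double colored library was 1.12 CPM, both from replicate 3. The log2 fold change was 2.93 ± 0.39 (SE), the smallest standard error among the genes with a log2 fold change above 2. In the alternative fits its log2 fold change ran from 2.60 to 3.44. Lgals3 (ENSMUSG00000050335) lies at chr14:47987426-48005835 on the plus strand.

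Gpnmb, Trem2 and Cd9 encode membrane proteins. Gpnmb, a transmembrane glycoprotein of macrophages and osteoclasts, stood at 7.41, 2.59, 1.81 and 1.04 CPM in double colored replicates 1 to 4. Its single colored values were 32.0, 23.9, 18.6 and 15.2 CPM. The groups did not overlap, the replicate numbers had the same order in both, and the pair ratios ran from 4.31 for number 1 to 14.5 for number 4. On the log2 scale Gpnmb differed by 2.80 ± 0.57 (SE), and by 3.03 with the replicate block. Gpnmb (ENSMUSG00000029816) lies at chr6:48986517-49020928 on the plus strand.

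Trem2, the myeloid receptor for lipids and lipoproteins that signals through Tyrobp, was low throughout. It stood at 1.38, 0.545, 0.302 and 0.293 CPM in double colored and 2.36, 3.04, 2.45 and 1.23 CPM in single colored replicates 1 to 4. The groups overlapped, double colored replicate 1 being above single colored replicate 4. The log2 fold change was 1.84 ± 0.47 (SE). It was past the threshold with all libraries, and lost the call in 9 of 12 fits that left out a library or a pair: without double colored replicate 2, 3 or 4, without single colored replicate 1, 2 or 3, and without pair 2, 3 or 4. In these 12 fits the log2 fold change ran from 1.57 to 2.57. Trem2 (ENSMUSG00000023992) lies at chr17:48485726-48493472 on the plus strand.

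Cd9, a tetraspanin that organizes other membrane proteins and that many cell types express, stood at 3.10, 3.00, 1.81 and 1.92 CPM in double colored replicates 1 to 4. Its single colored values were 4.51, 5.44, 1.69 and 2.90 CPM. The groups overlapped, and the lowest of all 8 libraries was a single colored one. The log2 fold change was 0.56 ± 0.33 (SE). Cd9 (ENSMUSG00000030342) lies at chr6:125410284-125444809 on the minus strand, with 1.47% of its exon length shared with a gene on the opposite strand.

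Fabp5, which carries fatty acids inside cells, stood at 2.22, 1.32, 0.907 and 1.50 CPM in double colored and 1.86, 2.13, 1.80 and 2.5 CPM in single colored replicates 1 to 4. Double colored replicate 1 was above 3 of the 4 single colored libraries. The log2 fold change was 0.47 ± 0.32 (SE), and the alternative fits gave 0.29 to 0.95. Fabp5 (ENSMUSG00000027533) lies at chr3:10012548-10016607 on the plus strand.

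**Figure D2:**
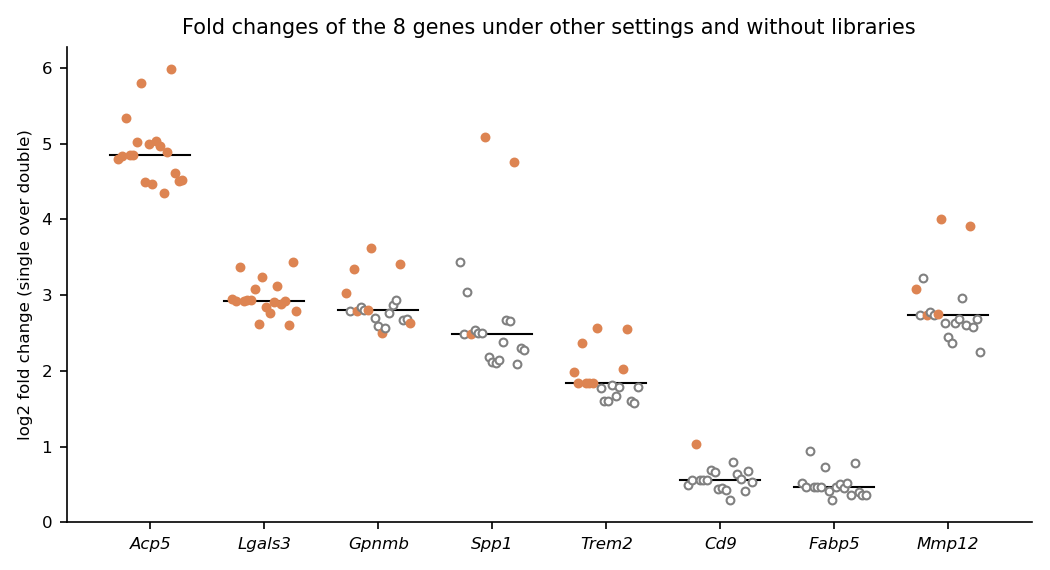
Log2 fold change of single over double colored cells (vertical axis) for each gene with all libraries in the design as planned (line) and under the alternatives, which include each library or pair left out (points, filled where past the adjusted p threshold of 0.05). Spp1 moves from 2.49 to 5.09 without double colored replicate 1. The genes were picked on this contrast, so filled points are a description only.

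Levels can be compared between genes only per length, as CPM divided by the exon length in kilobases (RPKM). This is the deposited length over the exons of all annotated isoforms, which can exceed that of the transcripts present. It was 3567 bases for Fabp5, 4946 for Trem2 and 7237 for Mmp12, against 1612 for Acp5 and 1648 for Spp1. The order of the genes depends on these lengths. In single colored cells Spp1 was the highest at 10.6 ± 5.37, followed by Gpnmb at 4.86 ± 1.58, Lgals3 at 2.91 ± 0.911, Cd9 at 1.78 ± 0.817 and Mmp12 at 1.32 ± 0.464. Acp5 followed at 0.649 ± 0.374, Fabp5 at 0.581 ± 0.0898 and Trem2 at 0.458 ± 0.153 (SD, n = 4). In double colored cells the order was Spp1 at 1.88 ± 3.14, Cd9 at 1.20 ± 0.335, Gpnmb at 0.697 ± 0.622, Fabp5 at 0.417 ± 0.154, Lgals3 at 0.378 ± 0.222, Mmp12 at 0.196 ± 0.234, Trem2 at 0.127 ± 0.104 and Acp5 at 0.0197 ± 0.0249. In both orders the mean ± SD range of every gene met that of the next, so no neighboring ranks were separate. Cd9 was in the 2nd place in double colored cells and in the 4th in single colored cells.

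In double colored cells, replicate 1 was the highest library for 7 of the 8 genes, Lgals3 being the exception with replicate 3. It held 68.7% of the summed double colored CPM of Mmp12, 57.6% of that of Gpnmb and 54.8% of that of Trem2. Single colored replicate 1 was the highest single colored library for 3, Lgals3, Gpnmb and Spp1. With group means removed, log2 CPM of Spp1 and Gpnmb correlated by 0.96 over the 8 libraries, Spp1 and Mmp12 by 0.91, Spp1 and Trem2 by 0.90, and Gpnmb and Trem2 by 0.90. The 8 libraries are the only points, and they share depth and cell makeup within a library. Acp5 and Lgals3 stood apart from this group of genes: their correlation with each other was 0.05, and their median correlations with the other 7 genes were 0.13 and 0.14. Cd9 correlated with Acp5 by −0.56.

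Of the tested genes, predicted genes and small RNAs left out, those with the highest r to Acp5 by the same measure were Paip1 (r = 0.98), Sv2a (r = 0.97) and Eif4e2 (r = 0.96). For Lgals3 they were Spata9 (r = 0.97), Tead4 (r = 0.97) and Lipo3 (r = 0.97), each over 8 libraries. The highest r among so many genes over so few libraries can be this high by chance. Acp5 also had at most 2 reads in any double colored library, so its pattern there rests on few reads. None of these 6 genes was past the threshold of the edgeR test between the groups (adjusted p from 0.385 to 0.912).

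The label was checked against other genes of both programs. Of the 22 genes of the osteoclast list, 7 had too few reads to be tested. Calcr, the calcitonin receptor, had 0 reads in the double and 1 in the single colored libraries together, and the fusion protein genes Dcstamp and Ocstamp had 0 and 5, and 1 and 5. Siglec15 had 0 reads in both, Oscar 6 and 11, Mmp9, the osteoclast gelatinase, 2 and 29, and Src 21 and 70. Other defining genes were detected: Nfatc1, the main transcription factor of osteoclast formation, had 539 reads in double and 986 in single colored libraries, and Tnfrsf11a, the receptor RANK, had 204 and 325. Atp6v0d2, a proton pump subunit, had 25 and 92. These read sums are not scaled to library size. The log2 fold changes of Nfatc1, Tnfrsf11a and Atp6v0d2 were 0.38 ± 0.19, 0.09 ± 0.41 and 1.49 ± 0.73 (SE). None of them was past the threshold (edgeR adjusted p = 0.369, 0.954 and 0.356). Ctsk, the collagenase of osteoclasts, was detected at 0.909 ± 0.215 CPM in double and 1.43 ± 0.582 CPM in single colored cells, and its log2 fold change was 0.66 ± 0.39 (SE, adjusted p = 0.458 by edgeR). These genes and their values were chosen for naming after they were seen.

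Of 22 osteoclast genes other than the 8, 15 were tested, and 2 of them rose, Tcirg1 and Snx10. Tcirg1, a subunit of the proton pump that acidifies the resorption space and lysosomes, rose by 1.18 ± 0.27 on the log2 scale (SE, edgeR adjusted p = 0.0253). Snx10, a sorting nexin that osteoclast resorption requires, rose by 0.96 ± 0.22 (adjusted p = 0.0297). With the replicate block 4 of the 15 rose, adding Mmp14, a membrane-bound collagenase (adjusted p = 0.0854 without and 0.000468 with the block), and Itgb3, the integrin subunit that binds osteopontin (adjusted p = 0.240 and 0.0254). The list's median log2 fold change was 0.22, against −0.01 for all tested genes. When libraries or pairs were left out, the count was 2 without single colored replicate 3, 0 in the fits that lacked pair 4, double colored replicate 4 or single colored replicate 1, and 1 in each other case.

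Of the 31 tested genes of the lipid-associated macrophage list, again without the 8, 8 rose, with a list median of 0.43. Msr1, a scavenger receptor for modified lipoproteins, rose by 1.23 ± 0.18 (SE, edgeR adjusted p = 0.00245). Soat1, which esterifies cholesterol for storage, rose by 2.11 ± 0.33 (adjusted p = 0.00287). The lysosomal protease gene Ctsz rose by 1.13 ± 0.21 (adjusted p = 0.00892), and Itgax, the integrin Cd11c, by 1.85 ± 0.35 (adjusted p = 0.00896). The other 4 were Tyrobp, Clec7a, Cstb and Hmox1. With the replicate block 11 rose, Apoe, Abca1 and Ctsb being added (adjusted p = 0.456, 0.155 and 0.164 without and 0.0472, 0.0386 and 0.0265 with the block), and 2 fell, Cd36 and Fabp4 (adjusted p = 0.147 and 0.117 without and 0.0220 and 0.0152 with the block). When libraries or pairs were left out, the count ran from 2 to 7. It was 4 without double colored replicate 4, 5 without single colored replicate 1 and 4 without single colored replicate 4. It was 4, 3 and 2 without pairs 1, 2 and 4.

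**Figure D3:**
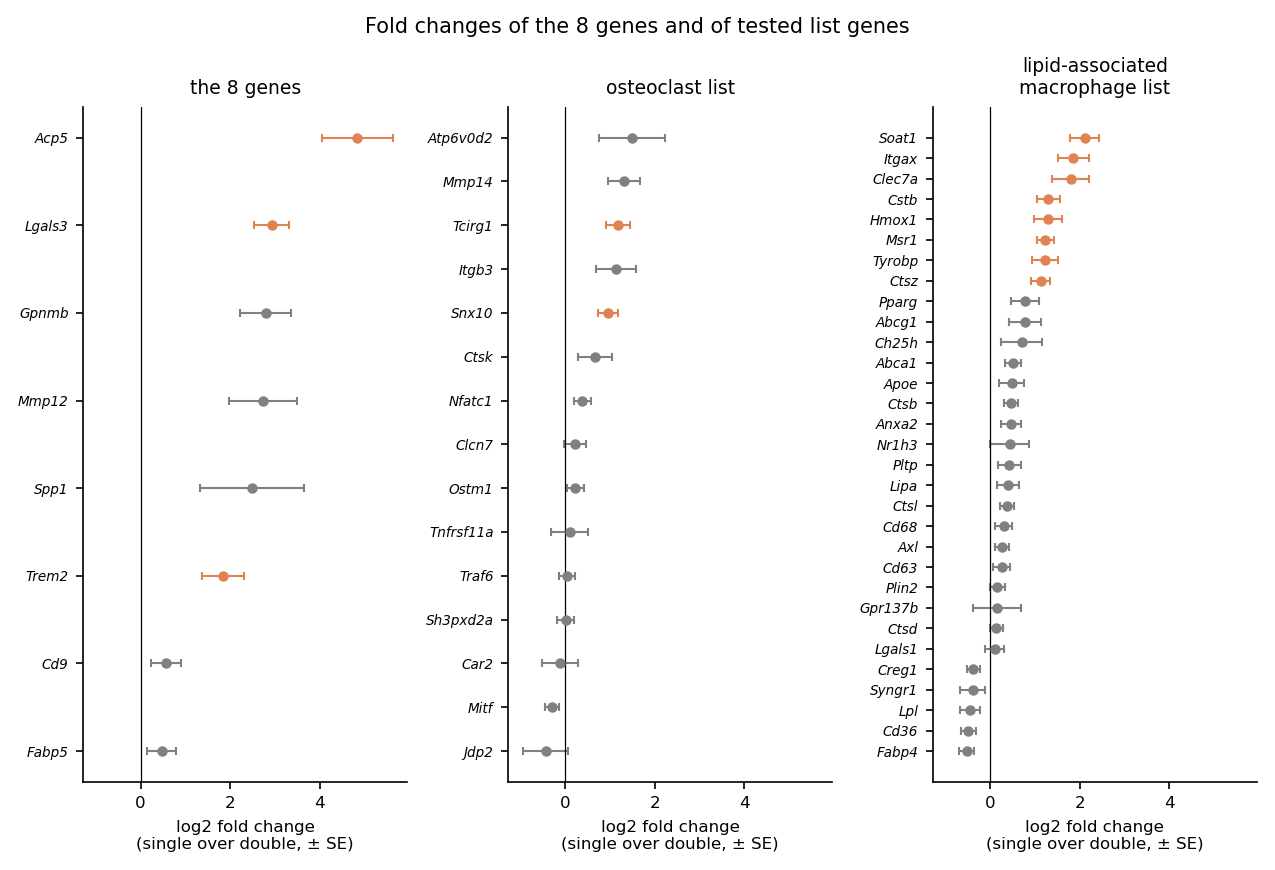
Log2 fold change of single over double colored cells ± SE (horizontal axis) for the 8 genes, for 15 tested osteoclast genes and for 31 tested lipid-associated macrophage genes, orange where past the adjusted p threshold of 0.05 in all libraries. The 8 genes were picked on this contrast. Of the other lists 2 and 8 genes are orange, and Soat1 has the highest value among them at 2.11.

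Partners and relatives of the 8 genes were counted in lists of their own. Some genes stand in more than 1 list, so the counts of the lists are not separate observations. Tyrobp, for example, is also in the lipid-associated macrophage list and among the macrophage markers. Of 11 tested genes around Trem2 signaling, 2 rose: Tyrobp, the adaptor that Trem2 needs, by 1.22 ± 0.28 (SE, edgeR adjusted p = 0.0289) and Clu, a lipoprotein component that Trem2 binds, by 0.82 ± 0.19 (adjusted p = 0.0297). With the replicate block 6 rose, among them Ms4a7 (adjusted p = 0.0854 without and 0.000134 with the block) and Inpp5d, a phosphatase that dampens the pathway (adjusted p = 0.0738 and 0.0306). The list median was 0.55. Of 10 receptors for osteopontin and Gpnmb, 2 rose, Cd44 by 1.25 ± 0.23 (adjusted p = 0.00761) and the integrin subunit Itga4 by 1.66 ± 0.23 (adjusted p = 0.00169), with a list median of 0.44. With the replicate block 5 rose, among them Sdc4 (adjusted p = 0.0566 without and 0.0216 with the block) and Itgav (adjusted p = 0.182 and 0.0486).

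Among close relatives, 1 of 5 tested genes of the galectin list rose, Lgals3bp, which binds galectin-3, by 0.79 ± 0.17 (SE, edgeR adjusted p = 0.0237). Lgals4, a galectin of gut epithelium, had a log2 value of −1.03 ± 0.59 and fell with the replicate block (adjusted p = 0.470 without and 0.0265 with the block). Of 10 tetraspanin genes 2 rose, the leukocyte genes Cd53 by 1.43 ± 0.28 (adjusted p = 0.0121) and Cd37 by 1.76 ± 0.45 (adjusted p = 0.0465). Of 12 metalloproteinase and inhibitor genes 1 rose, Timp1 by 1.88 ± 0.31 (adjusted p = 0.00396), and with the replicate block Mmp14 was added. Of 3 tested fatty acid binding protein genes none was past the edgeR threshold, 2 had an unadjusted p under 0.05, and DESeq2 called 1. Fabp3, the heart form, and Fabp4 had log2 fold changes of −0.47 and −0.53, and Fabp4 passed with the replicate block, as given above. Of 3 other acid phosphatase genes none was called by edgeR or DESeq2, and 2 had an unadjusted p under 0.05. These were Acp2, the lysosomal form, with a log2 fold change of 0.51 ± 0.19, and Acp1 with −0.60 ± 0.21. Acp6 was at −0.33 ± 0.26, and the list median was −0.33.

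Of 15 tested genes of the transcription factors named above, 1 rose, Spi1, which encodes PU.1, by 1.32 ± 0.30 (SE, edgeR adjusted p = 0.0261). For Tfec, the MITF relative of macrophages, the log2 value was 2.22 ± 0.71 (adjusted p = 0.124 without and 0.0303 with the replicate block). Mitf itself was at 13.9 ± 1.20 CPM in double and 11.2 ± 1.71 CPM in single colored cells, and Nfatc1 at 5.79 ± 0.890 and 7.51 ± 1.04 CPM. The list median was 0.09, 7 of the 15 had negative log2 values, and 6 had an unadjusted p under 0.05 by edgeR. The AP-1 genes Fos, Jun, Junb and Fosl2 had log2 fold changes of −0.44, −0.42, −0.26 and −0.07, past the threshold in neither fit.

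**Figure D4:**
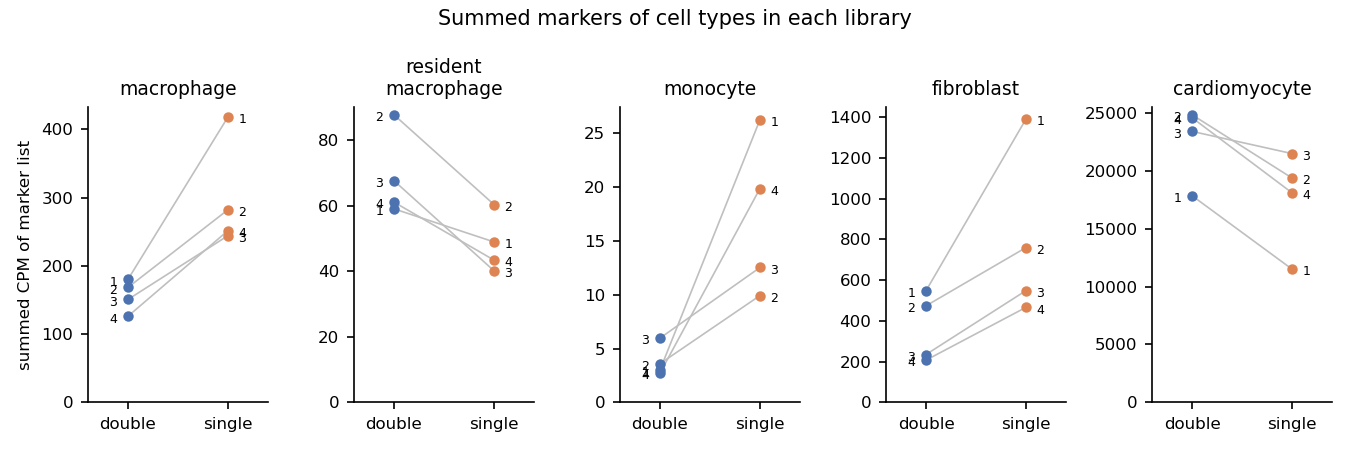
Summed CPM (vertical axis, linear, from 0, a separate scale per panel) of marker lists for macrophages, resident macrophages, monocytes, fibroblasts and cardiomyocytes in 4 double colored and 4 single colored libraries (points, numbered and joined by replicate). Macrophage and monocyte sums do not overlap between the groups, and replicate 1 has the highest fibroblast and the lowest cardiomyocyte sum in both groups.

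Markers of several cell types, but not of all, moved with the 8 genes. The 16 macrophage markers summed to 126 to 180 CPM in double colored libraries, against 244 to 418 CPM in single colored ones. Of these markers 8 rose: Ptprc, Itgam, Itgb2, Adgre1, Aif1, Laptm5, Tyrobp and Fcer1g. All 16 had log2 fold changes above 0, and the median was 1.02. The fit with the replicate block called 12 of them higher, Csf1r, Lyz2, Fcgr1 and C1qc being added. Cd68, Mertk, C1qa and C1qb were past the threshold in neither fit (edgeR adjusted p = 0.488, 0.336, 0.360 and 0.251 without the block). Monocyte markers summed to 2.72 to 5.96 against 9.91 to 26.2 CPM, and 4 of 4 tested rose. Markers of resident heart macrophages went the other way, with sums of 59.0 to 87.7 against 40.1 to 60.3 CPM, a median log2 fold change of −0.61. Cd163, a scavenger receptor for hemoglobin, fell by 1.47 ± 0.33 on the log2 scale (SE, edgeR adjusted p = 0.0240). With the replicate block 4 of these 8 fell, Lyve1, F13a1 and Cbr2 being added (adjusted p = 0.119, 0.107 and 0.0610 without and 0.00190, 0.00422 and 0.0237 with the block). T and NK cell markers summed to 1.34 to 3.76 against 13.6 to 28.4 CPM, and 6 of 6 tested rose. Cardiomyocyte markers were the most abundant in every library, at 17842 to 24829 against 11504 to 21475 CPM. All 8 of them had negative log2 fold changes, and edgeR and DESeq2 called none, while 3 had an unadjusted p under 0.05 and 2 passed with the replicate block. Fibroblast markers summed to 207 to 548 against 467 to 1391 CPM, and 1 of 6 rose, Col1a1 (adjusted p = 0.0460). Under the replicate block 3 rose, Col1a2 and Postn being added (adjusted p = 0.187 and 0.497 without and 1.16e-05 and 0.000187 with the block). Pdgfra, Dcn and Tcf21 of the same list had log2 fold changes of 0.09, −0.10 and −0.79, past the threshold in neither fit. The higher fibroblast sum was thus not shared by all markers of the list. Osteoblasts are another cell type known to express Spp1, and of their markers Ibsp had 0 reads in all libraries. Bglap and Sp7 had 0 reads in double and 2 and 1 in single colored libraries, while Runx2 rose by 2.13 ± 0.35 (adjusted p = 0.00407). Alpl, the other tested marker of this list, had 385 and 486 reads. Its log2 fold change was −0.13 ± 0.24 (SE, edgeR adjusted p = 0.867).

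Double colored replicate 1, the library with the high Spp1, had the highest macrophage sum (180 CPM) and fibroblast sum (548 CPM) of the double colored libraries. Its cardiomyocyte sum (17842 CPM) was the lowest of them. Double colored replicate 2 came near it in the macrophage sum (168 CPM) and fibroblast sum (474 CPM), but had Spp1 at 0.909 CPM. The cardiomyocyte sum of replicate 2 (24829 CPM) was the highest of the double colored libraries. The part of these cell types in the values of the 8 genes was not tested. In bulk RNA, fewer cells of a type and less RNA of a gene per cell cannot be told apart.

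Each gene was also set against the macrophage markers of its own library, as a percentage of the summed CPM of the 16 markers. Markers of T and NK cells rose too, and whether other leukocytes add to this sum was not tested. Gpnmb stood at 1.92% ± 1.49 in double and 7.44% ± 1.01 in single colored libraries (SD, n = 4 each), and the single colored values, 6.04% to 8.45%, were all above the highest double colored value of 4.11%. Lgals3 stood at 0.457% ± 0.263 against 1.82% ± 0.456, and Acp5 at 0.0188% ± 0.0229 against 0.390% ± 0.281, again with no overlap. Mmp12 stood at 0.822% ± 0.914 against 3.24% ± 1.21 and Spp1 at 1.75% ± 2.84 against 5.64% ± 1.75, both with double colored replicate 1 inside the single colored range. Trem2 stood at 0.381% ± 0.262 against 0.782% ± 0.299, overlapping. Cd9, at 1.56% ± 0.260 against 1.21% ± 0.518, and Fabp5, at 0.952% ± 0.309 against 0.732% ± 0.224, had lower means in single colored libraries, with overlap. For these last genes the log2 ratios of −0.36 and −0.38 became 0.02 and 0.0031 when Csf1r, Cd68 and Adgre1 alone were the divisor. With that divisor Mmp12 did not overlap either, its lowest single colored value being 12.96% and its highest double colored value 12.83%. The share of all tested genes without overlap on this scale was not computed. Because the contrast chose the 8 genes, nothing is read from which of them overlap.

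**Figure D5:**
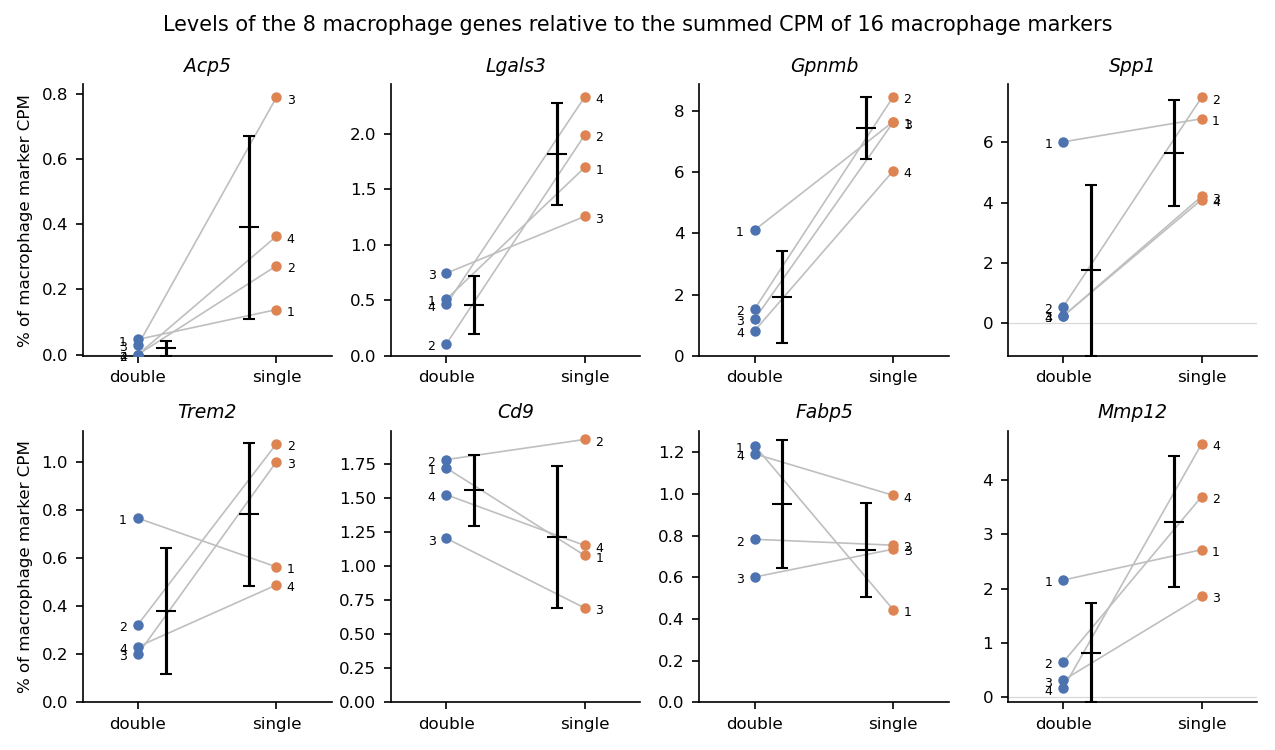
Level of each gene as a percentage of the summed CPM of 16 macrophage markers in the same library (vertical axis, linear, a separate scale per gene), in 4 double colored and 4 single colored libraries (points, numbered and joined by replicate), with mean ± SD bars (n = 4). Acp5, Lgals3 and Gpnmb do not overlap between the groups on this scale, while Cd9 and Fabp5 have lower means in single colored libraries. The genes were picked on this contrast, so this is a description only.

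In the authors' deposited table, with the sign turned to single over double, the log2 fold changes were 4.84 for Acp5, 2.92 for Lgals3, 2.79 for Gpnmb, 2.73 for Mmp12, 2.49 for Spp1, 1.83 for Trem2, 0.55 for Cd9 and 0.46 for Fabp5. In the authors' deposited table no gene of 15711 had an FDR under 0.05, the smallest being 0.185.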

How the data were processed

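The 8 libraries, grouped by their titles, were made from miRNeasy Micro RNA with the Ovation RNA-seq System v2, per the labels' protocols. STAR 2.5.2b, featureCounts of Subread and the build mm9 are named in the submitters' processing notes. Whether strand was used in counting is not given there. The deposited values used are whole raw read counts per gene, per the file headers. No estimated counts were used: the authors deposited whole raw read counts, and nothing was rounded. Alignment names in the headers point to a mapping quality of 30, which no text states. The deposited log2 fold changes and Benjamini-Hochberg FDR values (adjusted p-values) are the authors', by an unnamed test. A further 24 columns of deposited CPM and FPKM values were not used.

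Symbols came from GENCODE vM21 through the Ensembl identifiers (32919 of 37991). edgeR 4.0.16 in R 4.3.3 kept genes by filterByExpr (minimum count 10), scaled with TMM (factors 0.733 to 1.44) and compared the groups by its robust quasi-likelihood test, with p-values adjusted after Benjamini and Hochberg over 12466 genes and a threshold of 0.05. The procedure was tested on simulated data. Log2 CPM for correlations used a prior count of 2. Intervals cover counting error only. The 8 genes and all lists were chosen with earlier results of these data known. In each list the text names up to 4 genes with the smallest p, and other named genes were chosen after their values were seen. Alternatives were a replicate block, RLE factors, library totals, other filters, removal of mitochondrial genes, DESeq2 1.42.0, and leaving out each library or pair.

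After group means were removed, the libraries of number 1 correlated by 0.257 across genes, and those of numbers 2, 3 and 4 by 0.126, 0.136 and 0.139. Each is above 0.1, and equal numbers are called pairs in the text. The main fit did not use this pairing, which entered only in the alternative fit with the replicate block. What a number stands for is not in the labels. The highest correlation between different numbers was 0.108, also above 0.1, so a cut at 0.1 does not separate equal from different numbers. It was below the lowest correlation of equal numbers, 0.126.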

Additional observations from a re-analysis of the deposited data

Results flagged for a closer look

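In 1 of 16 checks for a library far from the others of its group, 1 per gene and group, a value stood apart: Spp1 in double colored replicate 1, at 10.8 CPM, where the other double colored libraries were at 0.293 to 0.909 CPM. Chance alone marks about 1 in 20 such groups.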

How the results depend on the processing

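The 309 genes called in all became 939 with the replicate block, 1390 with library totals alone, 805 with no filter on low counts, 97 with a filter at 5 CPM and 556 with DESeq2, and ran from 94 to 304 when libraries or pairs were left out (191 and 134 when double colored replicate 2 or 4 was left out, 142 for single colored replicate 1, and 146, 138, 200 and 94 for pairs 1 to 4). Of the 8 genes, 3 were called, beside 289 of 12466 tested genes called higher. The count became 5 with the replicate block (beside 619 of 12466), 5 with library totals alone (1389 of 12466) and 6 with no filter (642 of 23680). It was 0 of the 3 still tested at 5 CPM (93 of 4776) and 5 with DESeq2 (455 of 12466). With libraries or pairs left out it ran from 2 to 6, beside 93 to 277 genes called higher. Nothing is read from these counts, because the contrast chose the 8 genes. The 2 osteoclast genes called became 4 with the replicate block, 5 with library totals alone and 4 with no filter, and ran from 0 to 2 with libraries left out. The 8 lipid-associated macrophage genes called became 17 with library totals alone and 3 at 5 CPM, and ran from 2 to 7. Library totals alone moved the median of all tested genes to 0.48. All fold changes of the 8 genes were positive in every fit that tested them, but against Csf1r, Cd68 and Adgre1 the log2 ratios of Cd9 and Fabp5 turned from −0.36 and −0.38 to 0.0209 and 0.0031. The cause of these changes was not tested, apart from fewer genes at 5 CPM and fewer libraries. Acp5 had at most 2 reads in any double colored library.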
